A study of Mus musculus with 6 samples.

Results

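Expression of 10 circadian clock genes was described in 6 mouse hearts: Arntl, Clock and Npas2, the positive limb of the clock, Per1, Per2, Per3, Cry1, Nr1d1 and Nr1d2, repressors of the negative limb, and the output gene Dbp. Every probe that was no control and carried one of these names was taken, which gave 17 of the 41174 probes on the array and 10 of its 27745 gene names. All of the mice were male and 12 weeks old, and 1 heart was hybridized to 1 single-dye (Cy3) Agilent array. The 3 WT mice were the controls, and the 3 TG-PKR1 mice overexpressed PKR1, the prokineticin receptor 1, from the cardiomyocyte-specific αMHC promoter. The study kept its mice on a C57BL6/J background. The labels give no hour of collection and no lighting schedule. The comparison asks whether clock transcripts differed between the genotypes, and how far the hearts differed from one another in the balance of the limbs.

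The clock is a transcriptional feedback loop that runs in nearly every cell, cardiomyocytes included. BMAL1, the product of Arntl, pairs with CLOCK or NPAS2 on E-boxes and switches on the Per and Cry genes, Nr1d1, Nr1d2 and Dbp. PER and CRY proteins then inhibit this pair, REV-ERBα and REV-ERBβ (Nr1d1 and Nr1d2) repress Arntl through ROR elements, and DBP acts on D-boxes, so that in the tissues of a mouse Arntl peaks at about the opposite time of day from Dbp and the Per genes. The heart clock times fatty acid and glucose use, contractile function and ion channel expression.

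The promoters show which of these elements lie close to the gene starts. RefSeq promoters of build GRCm38.p6, from 250 bases before to 50 bases after each start, were matched by symbol for 9 of the 10 genes (13 promoters). Both strands were searched for the E-box CACGTG, the E'-box CACGTT, the D-box TTATGTAA and the ROR element TAGGTCA, and no matches overlapped in the promoters of these genes. Of 32851 promoters of the same length, 7.15% held the E-box, 4.68% the E'-box, 0.938% the D-box and 2.61% the ROR element. Among the 13 clock gene promoters, 2 held the E-box, 2 the E'-box, 1 the D-box and 1 the ROR element. Stretches are shown for the genes with a match before the start, because these are direct or indirect targets whose levels are given here. Each is written 5′ to 3′ on the strand of its gene, with matches in capitals.
Per1 (chr11:69098759-69098812, plus strand): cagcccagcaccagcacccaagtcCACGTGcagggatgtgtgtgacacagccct
Per3 (chr4:151044792-151044894, minus strand): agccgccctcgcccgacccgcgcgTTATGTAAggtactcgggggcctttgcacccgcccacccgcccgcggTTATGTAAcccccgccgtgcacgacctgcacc
Cry1 (chr10:85185085-85185157, minus strand): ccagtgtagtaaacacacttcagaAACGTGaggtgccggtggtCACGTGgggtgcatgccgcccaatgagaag
Nr1d1 (chr11:98775378-98775429, minus strand): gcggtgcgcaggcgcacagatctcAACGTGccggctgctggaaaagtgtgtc
The Per1 stretch holds an E-box that begins 166 bases before the start. The Per3 stretch holds D-boxes that begin 205 and 158 bases before the start. In Cry1 an E'-box read on the opposite strand begins 79 bases before the start and an E-box 60 bases before it. In Nr1d1 the match, 28 bases before the start, is an E'-box on the opposite strand. The ROR element lies 31 bases after the second annotated start of Arntl. A match describes the letters of a window, and binding was not measured here.

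Signals were normalized by loess on the log2 scale, and the 20000 brightest probes were tested. They included 13 clock gene probes for 9 of the 10 genes, all but Npas2. The software called 10 of the 17 probes (7 genes) well above background on all 6 arrays and 2 probes on none. No clock gene probe was saturated. The arrays differed in scan: WT replicate 1 and TG-PKR1 replicates 2 and 3 had an extended range, with an upper quartile of signal 11.4 to 14.1 times the background, and the other 3 arrays a single scan, with 2.08 to 3.97 times. WT replicate 1 is thus the only WT heart within the extended range arrays. TG-PKR1 replicate 1 is the only TG-PKR1 heart within the single scan arrays, so differences within a scan mode rest on a single heart on one side. WT replicate 2 and TG-PKR1 replicate 1 shared a slide, and the other 4 arrays each had a slide of their own. The only probe of Prokr1, the mouse gene for PKR1, was not well above background on any array, so it does not check the genotype labels. Cardiomyocyte markers were present, with 18 probes of all 10 listed genes among the brightest. The hearts are whole tissue, in which fewer cells of a type and less RNA per cell cannot be told apart.

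No clock gene differed between the groups at an adjusted p under 0.05. SAM called 0 of 13 clock gene probes, against 56 of the 19955 probes with a value in every heart, all of them lower with the transgene. With limma, Benjamini-Hochberg adjusted over the 20000 probes, 0 of the 13 were called as well, against 19 of all probes (0.095%). The count over all probes was 0 without WT replicate 1, WT replicate 3, TG-PKR1 replicate 1 or TG-PKR1 replicate 3, with scan mode as a block, under 75th percentile scaling, in the authors' table and with either looser filter on dim probes, 8 without TG-PKR1 replicate 2, 31 with trend and robust settings of eBayes and 33 with quantile normalization. The unadjusted limma p was under 0.05 for 1 of the 13 probes, beside 475 of the 20000, 143 of them higher with the transgene. The hearts of the groups did not overlap for 1 of the 13, where 5.41% of all probes did not overlap, so the clock probes' share is near the background. Of the 9 genes, 5 averaged higher and 4 lower with the transgene. The median gene difference, TG-PKR1 minus WT, was 0.16 (log2), with a range from -0.49 to 0.60, beside a median of 0.03 over all probes. With 3 hearts against 3, the smallest two-sided p of the exact permutation test is 0.1.

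**Figure D1:**
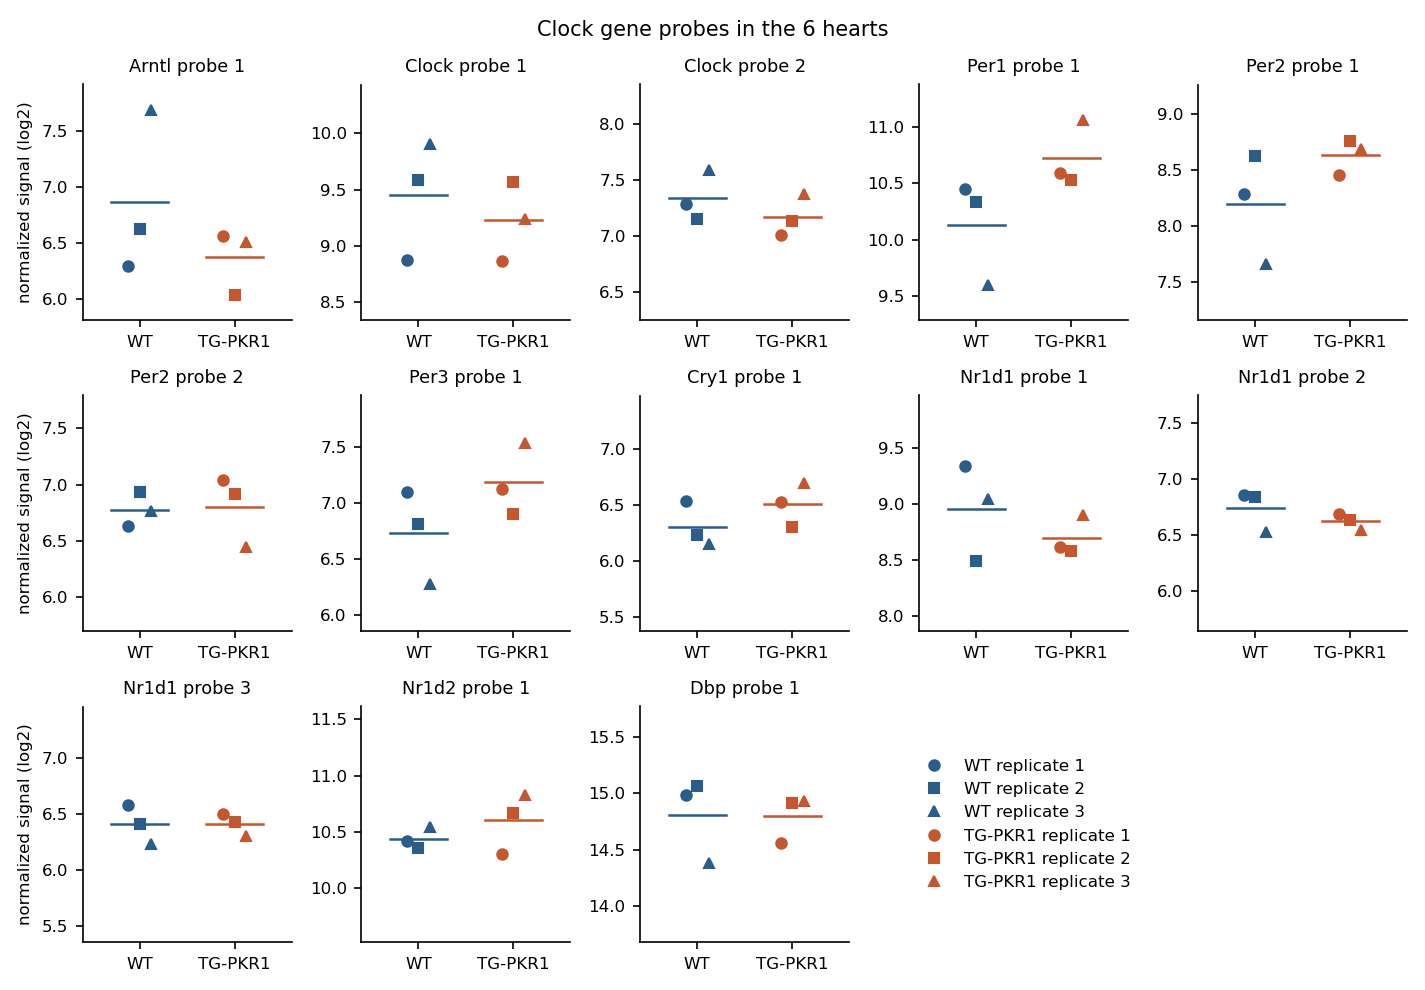
Normalized signal (log2, vertical axis) of the 13 clock gene probes among the brightest, by group, with 1 point per heart and a line at the mean of 3 hearts; every panel spans the same height in log2 units. WT replicate 3 (blue triangle) is the highest heart for Arntl at 7.68 and the lowest for Per1 at 9.60, and the Per1 panel is the one in which the groups do not overlap.

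Arntl encodes BMAL1, the partner without which the loop stops. Its probe (chr7:113104645-113104704 in build mm8) read 6.30, 6.62 and 7.68 in WT replicates 1 to 3 and 6.56, 6.04 and 6.52 in TG-PKR1 replicates 1 to 3, as normalized log2 signal. WT replicate 3 stood above the other 5 hearts, which lay within 0.58 of one another, and the groups overlapped. TG-PKR1 hearts averaged 6.37 ± 0.29 and WT hearts 6.87 ± 0.73 (SD, n = 3), a difference of -0.49 with a standard error of 0.34 (95% interval -1.26 to 0.28; limma unadjusted p = 0.179, adjusted p = 0.9999). Without WT replicate 3 the difference was -0.09, and within the extended range arrays it was -0.02, against -0.59 within the single scan arrays. The probe was well above background on 2 of 3 WT arrays and 3 of 3 TG-PKR1 arrays. Its SD over the 6 hearts was at the 97.0th percentile of the 20000 probes.

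Clock encodes the DNA-binding partner of BMAL1, and 2 of its 4 probes were among the brightest. The first (chr5:77287127-77287186) read 8.88, 9.59 and 9.90 in WT and 8.87, 9.57 and 9.24 in TG-PKR1 hearts. The second (chr5:77287523-77287582) read 7.28, 7.15 and 7.59 in WT and 7.01, 7.14 and 7.38 in TG-PKR1 hearts. WT replicate 3 was the highest heart on both probes, and the groups overlapped on both. The differences were -0.23 (standard error 0.28, 95% interval -0.88 to 0.42, limma unadjusted p = 0.442) and -0.17 (standard error 0.18, limma unadjusted p = 0.367). Without WT replicate 3 they were -0.00467 and -0.04. The first probe differed in sign between the scan modes, at 0.53 within the extended range arrays and -0.88 within the single scan arrays. The other 2 Clock probes lay near the lower end of the signals, between 5.76 and 6.13. Npas2, an alternative partner of BMAL1, read from 5.86 to 5.97 on its single probe (chr1:39306642-39306701) and was not well above background on any of the 6 arrays.

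Per1, a repressor that also responds quickly to glucocorticoids and light, was the one clock gene with a probe whose hearts did not overlap between the groups in these values; under 75th percentile scaling there was none. Its probe (chr11:68925571-68925630) read 10.45, 10.33 and 9.60 in WT hearts and 10.60, 10.53 and 11.06 in TG-PKR1 hearts. Each TG-PKR1 heart was above each WT heart, although WT replicate 1 and TG-PKR1 replicate 2 lay close together. The difference was 0.60 (standard error 0.25, 95% interval 0.02 to 1.18), or 1.52-fold, with an unadjusted p of 0.0438 and an adjusted p of 0.9999 in limma and an exact permutation p of 0.1. It was 0.34 without WT replicate 3. Within the extended range arrays it was 0.34, within the single scan arrays 0.63 and on the shared slide 0.27.

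Per2 and Per3, which act with Per1 in the repressor complex, lay higher on average in TG-PKR1 hearts, but their hearts overlapped. The brighter Per2 probe (chr1:93246875-93246934) read 8.29, 8.63 and 7.67 in WT and 8.45, 8.76 and 8.68 in TG-PKR1 hearts. WT replicate 3 was again the lowest heart. The difference was 0.44 (standard error 0.24, limma unadjusted p = 0.107, adjusted p = 0.9999), and 0.17 without WT replicate 3. On the shared slide it was -0.17, and within the scan modes 0.43 (extended range) and 0.31 (single scan). The second Per2 probe (chr1:93270367-93270426) ranged from 6.45 to 7.04 and did not place WT replicate 3 at an end, with a difference of 0.03 (standard error 0.19), so the 2 probes of this gene disagree. Per3 (chr4:149848947-149849006), with the paired D-boxes printed above, read 7.10, 6.81 and 6.28 in WT and 7.12, 6.90 and 7.53 in TG-PKR1 hearts. Its difference was 0.46 (standard error 0.25, limma unadjusted p = 0.0998, adjusted p = 0.9999). Without WT replicate 3, the lowest heart for Per3 also, it was 0.23. It was 1.09 with the processed signal and 0.17 under 75th percentile scaling, and 0.12 within the extended range arrays against 0.58 within the single scan arrays.

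Cry1, the cryptochrome that blocks CLOCK and BMAL1 directly, was dim. Its brighter probe (chr10:84573549-84573608) read 6.53, 6.23 and 6.15 in WT and 6.53, 6.30 and 6.69 in TG-PKR1 hearts, a difference of 0.20 (standard error 0.17, limma unadjusted p = 0.274). Leaving out 1 heart gave 0.11 (without TG-PKR1 replicate 3) to 0.32 (without WT replicate 1), with 0.13 without WT replicate 3 and 0.31 without TG-PKR1 replicate 2. It was 1.17 with the processed signal, -0.03 within the extended range arrays and 0.34 within the single scan arrays. It was well above background on 1 of 3 WT arrays and on 3 of 3 TG-PKR1 arrays. The second Cry1 probe, outside the brightest, ranged from 6.11 to 6.47.

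The probes of the REV-ERB genes differed in where they placed the hearts. The brightest Nr1d1 probe (mapped to the span chr11:98585302-98585804) read 9.34, 8.49 and 9.04 in WT and 8.62, 8.58 and 8.90 in TG-PKR1 hearts. WT replicate 1 was the highest heart here, and WT replicate 3 was not at an end. The difference was -0.26 (standard error 0.23, limma unadjusted p = 0.288). It was -0.07 without WT replicate 1 and -0.49 without WT replicate 2, and -0.60 within the extended range arrays, -0.15 within the single scan arrays and 0.13 on the shared slide. The other 2 Nr1d1 probes gave -0.12 (standard error 0.15) and 0.01 (standard error 0.15), and on both WT replicate 3 was the lowest heart, at 6.53 and 6.24. The first of these was -0.47 under 75th percentile scaling, -0.32 with the processed signal and -0.23 without WT replicate 3, and nearer 0, at -0.07, without WT replicate 1 or WT replicate 2. Nr1d2 (chr14:16997805-16997864) read 10.42, 10.36 and 10.54 in WT and 10.30, 10.67 and 10.83 in TG-PKR1 hearts, with a difference of 0.16 (standard error 0.17, limma unadjusted p = 0.377). The 3 WT hearts lay inside the range of the TG-PKR1 hearts, and the difference was 0.33 within the extended range arrays and -0.14 within the single scan arrays. It was 0.05 without TG-PKR1 replicate 3 and 0.31 without TG-PKR1 replicate 1.

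Dbp, a PAR bZIP activator and the classical output of the loop, did not pass the test either. Its probe (chr7:45577937-45577996) read 14.99, 15.07 and 14.38 in WT and 14.56, 14.91 and 14.94 in TG-PKR1 hearts. WT replicate 3 and TG-PKR1 replicate 1 were the lowest hearts, and the groups overlapped. The difference was -0.01 (standard error 0.22, 95% interval -0.51 to 0.48, limma unadjusted p = 0.962), an interval that leaves room for a change in either direction. Its sign turned under other scalings, to 0.03 with quantile normalization and 0.20 with scaling to the 75th percentile, and it was -0.23 without WT replicate 3.

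**Figure D2:**
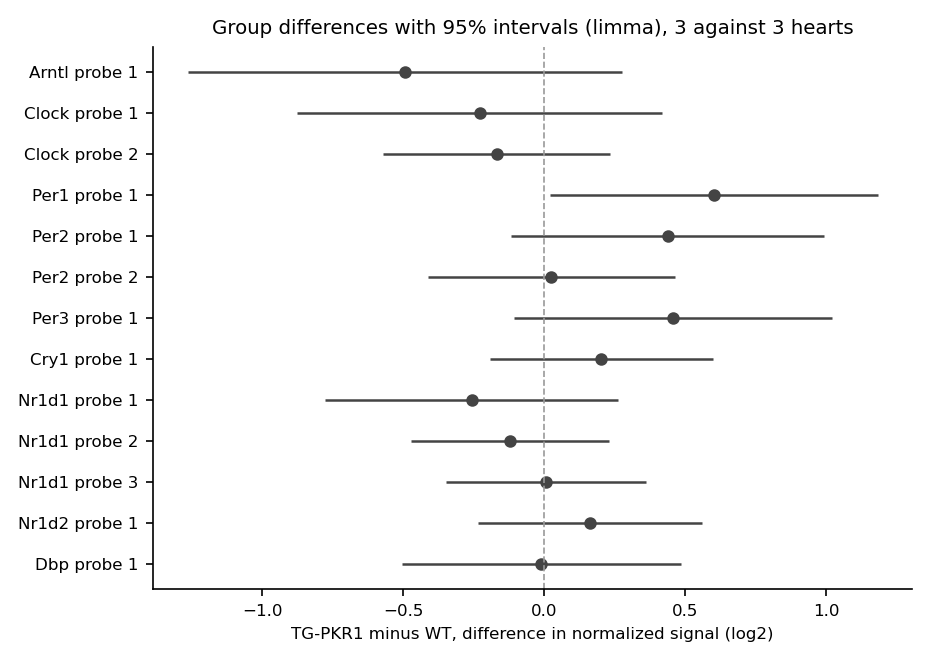
Difference between the groups (TG-PKR1 minus WT, log2, horizontal axis) for the 13 clock gene probes, with points at the limma estimate and bars at its 95% interval, 3 hearts against 3. Only the Per1 bar, from 0.02 to 1.18, lies off the dashed line at 0, before any adjustment for the number of probes.

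The larger contrast lay inside the WT group. WT replicate 3 held the highest or lowest value for 7 of the 9 genes, after averaging the probes of a gene: it was highest for Arntl and Clock and lowest for Per1, Per2, Per3, Cry1 and Dbp. The other 5 hearts were at an end for 1 to 4 genes each. Over all probes with 6 values, WT replicate 3 was at an end for 34.9%, close to the 28.2% to 36.4% of the other hearts. Its clock genes differed from the mean of the other 5 hearts by a median of 0.51 (log2, without sign), against 0.13 to 0.20 for the other hearts. Over all probes the same measure was 0.18 in WT replicate 3 and 0.17 to 0.19 in the others. This heart was singled out after its values were seen, so these are descriptions with no test. The number in its title also lies apart from those of the other 5 hearts, which run close together. The labels do not say what these numbers stand for, and a batch behind them was not tested.

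In size, Arntl was 2.42-fold higher in WT replicate 3 than the mean of the other hearts and Clock 1.45-fold higher. Per1 was 1.99-fold lower, Per3 1.76-fold, Dbp 1.42-fold, Per2 1.38-fold and Cry1 1.23-fold lower. The Arntl probe was well above background on 2 of 3 WT arrays and the Cry1 probe on 1 of 3, so these 2 folds are not exact. Nr1d1 was 1.03-fold lower and Nr1d2 1.02-fold higher, both inside the range of the other hearts. Arntl and Clock thus stood on the opposite side of the other hearts from the Per genes, Cry1 and Dbp. The value for Nr1d1 averages probes that disagree, since WT replicate 3 was the lowest heart on 2 of its 3.

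**Figure D3:**
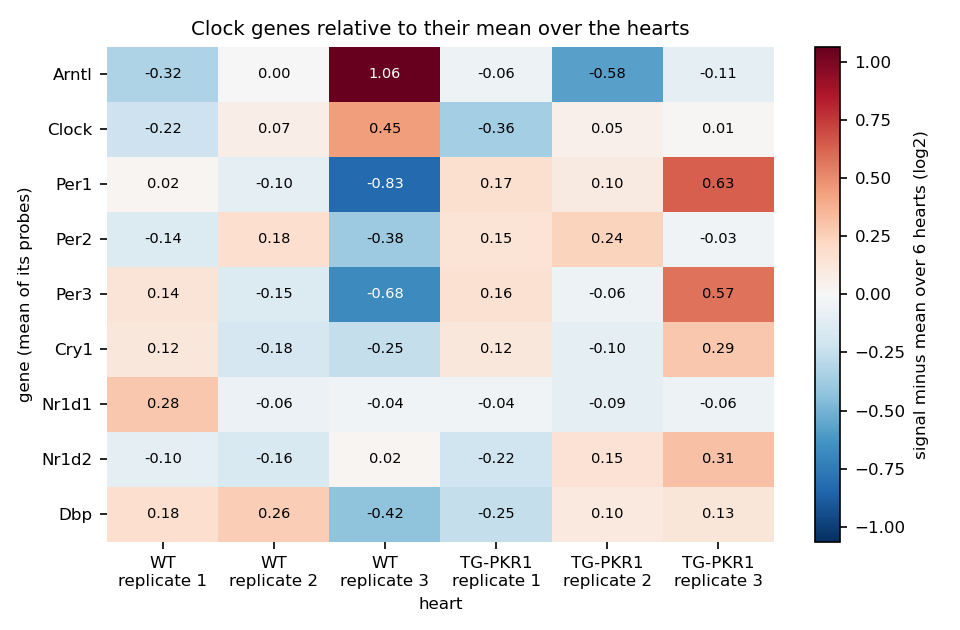
Level of each clock gene in each heart relative to its mean over the 6 hearts (log2; red higher, blue lower, numbers give the value), with the probes of a gene averaged. The column of WT replicate 3 runs from 1.06 for Arntl to -0.83 for Per1, while TG-PKR1 replicate 3 is highest for Per1, Per3, Cry1 and Nr1d2.

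The balance of the limbs was set out per heart as the mean centred level of the positive limb (Arntl and Clock, since Npas2 was not among the brightest) minus that of the other 7 genes. This limb index was -0.35, 0.07 and 1.13 in WT replicates 1 to 3 and -0.22, -0.31 and -0.31 in TG-PKR1 replicates 1 to 3. WT replicate 3 stood alone at the top, 2.18-fold above the mean ratio, and the lowest heart was also WT in these values. The index averaged 0.28 ± 0.76 in WT and -0.28 ± 0.05 in TG-PKR1 hearts (SD, n = 3), a difference of -0.56 that is smaller than the SD of the WT hearts. Without WT replicate 3 the difference was -0.14. Among the extended range arrays it was 0.03, where WT replicate 1 is the only WT heart, -0.82 within the single scan arrays and -0.29 on the shared slide.

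WT replicate 3 kept the highest index in each of the 10 versions of the values computed for every heart, and no other heart passed 0.45. It was at 1.04 to 1.16 in the 7 versions with Arntl and Clock, at 1.43 (processed signal) and 0.78 (normexp) where Arntl fell outside the brightest and the positive limb was Clock alone, and at 0.80 over all probes, Npas2 included. The lower end did not hold: a TG-PKR1 heart was lowest in 6 of the 10. The array of WT replicate 3 was scanned once, as were those of WT replicate 2 and TG-PKR1 replicate 1, whose indices were 0.07 and -0.22. Under 75th percentile scaling the index parted by scan mode, at 0.45, 1.09 and 0.16 in WT replicates 2 and 3 and TG-PKR1 replicate 1, which were scanned once, and at -0.51, -0.62 and -0.57 in WT replicate 1 and TG-PKR1 replicates 2 and 3. An index of this kind follows the time of day in a running clock, but no collection time is given. The part of collection time and of scan mode in the difference between hearts was not tested.

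**Figure D4:**
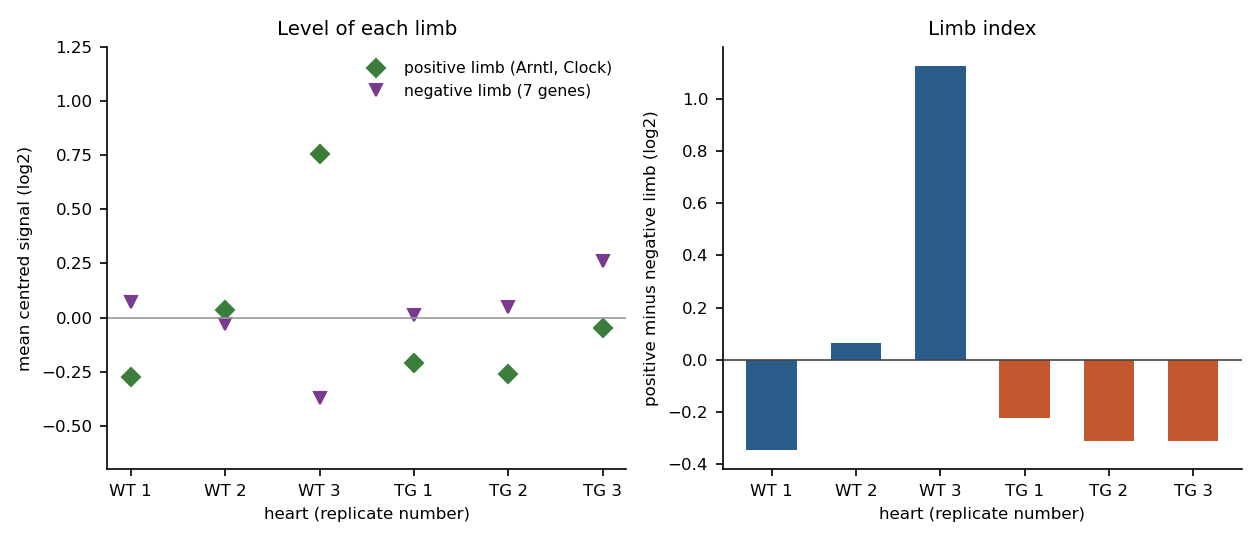
Left, mean centred level (log2) of the positive limb (diamonds, Arntl and Clock) and of the other 7 clock genes (triangles) in each heart; right, the limb index, their difference (log2), as bars from 0 with WT in blue and TG-PKR1 in orange. WT replicate 3 reaches 1.13, and the 3 TG-PKR1 bars lie between -0.31 and -0.22.

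Other genes of the loop were read from a list of analogues, ROR receptors, bZIP and bHLH factors, of which 14 probes for 10 genes were among the brightest. Limma called 0 of them, where it called 0.095% of all probes, and SAM called 0, where it called 56 of 19955 probes. Of the 13 probes with a value in every heart 2 did not overlap, both higher in TG-PKR1 hearts, where 5.41% of all probes did not overlap. In all, 12 of the 14 averaged higher with the transgene, with a median difference of 0.24. WT replicate 3 was the lowest heart on 9 of the 14 and the highest on 1, where it was lowest on 21.5% of all probes. Its median centred level over the list was -0.39, and that of the other hearts -0.09 to 0.15.

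Tef, a PAR bZIP factor related to Dbp, read 7.39, 7.06 and 6.54 in WT and 7.47, 7.14 and 7.27 in TG-PKR1 hearts on its first probe. A brighter Tef probe had an outlier spot in WT replicate 1, and so rests on WT replicates 2 and 3, at 10.98 and 10.61, and TG-PKR1 hearts at 11.51, 11.26 and 11.44. Its difference of 0.61 (standard error 0.19) had a limma adjusted p of 0.9999, and the 3 TG-PKR1 values lie above both WT values. Bhlhe41, a bHLH repressor that competes for E-boxes, read 6.91, 6.85 and 6.37 in WT and 6.74, 7.27 and 7.45 in TG-PKR1 hearts. The first Tef probe gave -0.18 within the extended range arrays and 0.67 within the single scan arrays, and Bhlhe41 0.45 and 0.14. WT replicate 3 was the lowest heart for both genes, as it was for Ciart, a repressor of CLOCK and BMAL1, at 8.20 against 8.29 to 9.59 in the other hearts.

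The groups did not overlap for Nfil3 and Rora, on 1 of 2 probes each among the brightest. A dim Rora probe outside the brightest, from 5.95 to 6.17, did not overlap either. Nfil3, which represses D-box genes, read 7.79, 7.77 and 7.66 in WT and 8.10, 7.98 and 8.05 in TG-PKR1 hearts (difference 0.30, standard error 0.14, limma adjusted p = 0.9999). Rora, an activator of Arntl, read 8.59, 8.51 and 8.16 in WT and 8.70, 8.71 and 8.65 in TG-PKR1 hearts (difference 0.27, standard error 0.16, limma adjusted p = 0.9999). On the second Nfil3 probe WT replicate 1, not WT replicate 3, was lowest. Cry2, the second cryptochrome, separated WT replicate 1 at 9.40 from WT replicates 2 and 3 at 8.20 and 8.17, and its TG-PKR1 hearts read 9.01, 8.46 and 8.95. Hlf, the third PAR bZIP factor, was lowest in TG-PKR1 replicate 1 at 9.51 and highest in TG-PKR1 replicate 3 at 10.33.

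**Figure D5:**
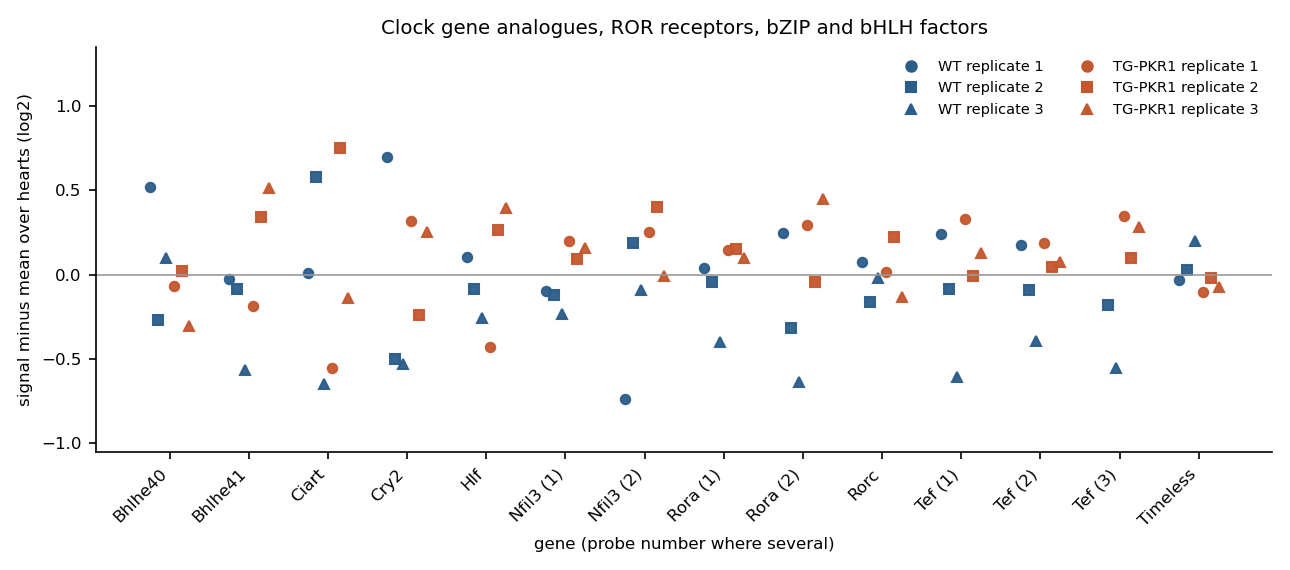
Level of 14 probes for other genes of the loop in each heart, relative to the mean over the hearts (log2, vertical axis), with 1 symbol per heart; the third Tef probe has no value in WT replicate 1. WT replicate 3 (blue triangle) is the lowest symbol for 9 of the 14 probes, with Cry2 and Ciart among them.

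Kinases, ubiquitin ligases and cofactors that act on the clock proteins gave 29 probes for 15 genes. Limma called 0, beside 0.095% of all probes, and the hearts overlapped on all 29, where 5.41% of all probes did not overlap. Of the 29, 24 averaged higher with the transgene (median difference 0.13, beside 0.03 over all probes). WT replicate 3 was lowest on 12 of them, where it was lowest on 21.5% of all probes. Usp2, a rhythmic deubiquitinase, read 11.16, 11.18 and 10.65 in WT and 11.01, 11.28 and 11.14 in TG-PKR1 hearts on its brighter probe.

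Genes that the heart clock is known to time gave 12 probes for 8 genes. Limma called 0 of them, beside 0.095% of all probes, and 7 were higher and 5 lower in TG-PKR1 hearts. Pdk4, the kinase that restrains glucose oxidation, read 13.82, 13.51 and 14.25 in WT and 13.63, 12.73 and 13.11 in TG-PKR1 hearts, a difference of -0.70 (standard error 0.27, limma adjusted p = 0.9999) with overlapping groups. Klf15, a regulator of nutrient use and of Kcnip2, gave 0.71 on one probe (standard error 0.31, limma adjusted p = 0.9999) and 0.08 on the other. Kcnip2, a subunit of the transient outward potassium channel, gave 0.45 (standard error 0.21). Within the extended range arrays these were 0.24 and 0.51 for the Klf15 probes and 0.00316 for Kcnip2, and within the single scan arrays 1.30, -0.11 and 0.79. Pdk4 was -0.90 and -0.25 in the same order, and 0.13 on the shared slide. WT replicate 3 was the lowest heart on 2 of these 12 probes and the highest on 1. Over all probes it was lowest on 21.5% and highest on 13.5%.

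Glucocorticoid-responsive genes were read because Per1 also answers to these hormones. Of 14 probes for 8 genes limma called 0, beside 0.095% of all probes, and 10 averaged higher with the transgene. Fkbp5 and Tsc22d3, which glucocorticoids induce, gave differences of 0.12 to 0.52 on 6 probes, all with overlapping hearts. Each of these differed in sign between the scan modes, where WT replicate 1 and TG-PKR1 replicate 1 each stand alone for their group. Of the 6, 5 lay between -0.56 and -0.07 within the extended range arrays and between 0.59 and 1.32 within the single scan arrays. The third Fkbp5 probe gave 0.68 and -0.13 in the same order. On the first Fkbp5 probe TG-PKR1 replicate 1 was highest at 8.64 and WT replicate 3 lowest at 7.07. The groups did not overlap on 2 of the 14, beside 5.41% of all probes: Angptl4, a lipase inhibitor also made by fat (-1.09, standard error 0.33), and the metallothionein Mt2 (-0.84, standard error 0.27), both lower in TG-PKR1 hearts with a limma adjusted p of 0.9999. Angptl4 was -1.97 within the extended range arrays and -0.33 within the single scan arrays.

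Of the marker lists, those of fat held the only probes called, and these calls are lost in each setting above in which no probe of the array was called. Over all probes, 5.41% did not overlap and 0.095% were called by limma. Adipocyte markers averaged lower with the transgene on 13 of 13 probes, with 12 not overlapping, 3 called by limma and a median difference of -0.77. Their summed linear signal was 226511 to 291004 in WT and 139322 to 153087 in TG-PKR1 hearts. WT replicate 3 did not stand apart in them, with a median centred level of 0.48 against 0.64 and 0.67 in the other WT hearts. Brown adipocyte markers averaged lower on 5 of 7 probes and higher on 2, both of Ppargc1a (0.49 and 0.43), with 4 not overlapping, 1 called and a median difference of -1.39. Cardiomyocyte markers averaged higher with the transgene on 18 of 18 probes, none of them called or without overlap, with a median difference of 0.16. Their summed signal was 980915 to 1425510 in WT and 1010090 to 1752740 in TG-PKR1 hearts. WT replicate 3 had the lowest cardiomyocyte sum and, at -0.33, the lowest median centred level, next to TG-PKR1 replicate 2 at -0.30, whose limb index was -0.31. Erythroid markers were low in the same hearts, at -0.57 in WT replicate 3 and -0.83 in TG-PKR1 replicate 2. Skeletal muscle gave 3 probes among the brightest, thymus and T cells 1 and lung epithelium 0. Below that level, Sftpc, a surfactant protein of lung, read 10.77 in WT replicate 1 and 5.83 to 5.995 in the other hearts, and Scgb1a1, of airway club cells, 8.92 in TG-PKR1 replicate 2 and 6.15 to 6.43 in the others. Sftpd, also of lung, read 7.01 in WT replicate 1, 6.63 in TG-PKR1 replicate 2 and 5.79 to 5.94 in the others. Of skeletal muscle, a Myh1 probe read 7.65 in TG-PKR1 replicate 2 and 5.83 to 6.07 in the others. A Myh4 probe read 6.59 in TG-PKR1 replicate 2 and 5.69 to 5.89 in the others. WT replicate 3 did not stand apart in any of these. The part of these cell types in the clock gene values was not tested.

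The probes whose centred profile over the 6 hearts was nearest to that of Arntl, by root mean square difference among the brightest, included Crls1 (0.22), the cardiolipin synthase, Sh3pxd2a (0.23), an adaptor of podosomes, and C330007P06Rik (0.24). Crls1 ranged over 1.06 across the hearts and Sh3pxd2a over 1.55, where Arntl ranged over 1.64. Nearest to Dbp were Vegfb (0.10), an endothelial growth factor, Thsd4 (0.11), Atp5l (0.11), a subunit of ATP synthase, Rela (0.11), a subunit of NF-κB, and Cd3e (0.11). With 6 hearts and 20000 probes such a likeness is a description of these libraries.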

How the data were processed

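RNA of 6 hearts was hybridized to 1 array each. The authors deposited scanner intensity values per spot, extracted with Agilent Feature Extraction 9.5.1.1 and not normalized between arrays, and a table of log2 values that the authors normalized by LOWESS against a median profile and filtered on the highest medians. Here log2 median signals without outlier spots were loess-adjusted (span 0.3, 4 iterations) to the median profile. After averaging of replicate spots, the 20000 probes of highest median were retained. The genotypes were tested with limma 3.58.1 in R 4.3.3 (lmFit, eBayes, Benjamini-Hochberg), with SAM over 20 assignments as an alternative. The analysis was tested on simulated data. Probe positions (mm8) and names are those of the deposited files. A gene is the mean of its probes; levels are not compared between probes. The 13 probes among these were all described, with the 5 nearest profiles to Arntl and to Dbp, of which 2 probes carry no gene symbol and are unnamed. The number of arrays limits precision. One heart was 1 mouse by the labels; replicate numbers follow their order and pair nothing. Members and gene lists were chosen with earlier results of these data known. The alternatives were other signal columns, scalings, filters, scan mode as a block and leaving out each heart.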

Additional observations from a re-analysis of the deposited data

How the results depend on the processing

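No clock gene probe was called in any of 19 alternatives; the smallest adjusted p in limma was 0.828, without TG-PKR1 replicate 2. The count of probes whose hearts did not overlap was 0 under 75th percentile scaling, and 2 to 5 with a heart left out, where smaller groups separate more easily. The share of all probes is not given for these smaller groups, so the counts of 2 to 5 have no background beside them. The median member difference ranged from 0.01 (0.0112, within single scan arrays) to 0.19, and the limb index difference from -0.88 (without WT replicate 1) to 0.03 (0.0337, within extended range arrays, the one alternative with a positive value). With a heart left out they spanned 0.05 to 0.19 and -0.88 to -0.14. The Per1 difference was 0.34 (without WT replicate 3) to 0.76 in 18 alternatives, and 0.27 on the shared slide alone. With a heart left out, Arntl was -0.78 (without WT replicate 1) to -0.09, Clock -0.52 (without WT replicate 1) to -0.00467 on its first probe and -0.27 (without TG-PKR1 replicate 3) to -0.04 on its second, Per2 0.17 to 0.65 (without WT replicate 2) on its first and Per3 0.23 to 0.64 (without WT replicate 1), with the value nearest 0 each time without WT replicate 3. Differences near 0 changed sign. Dbp was 0.0290 with quantile normalization, 0.20 under 75th percentile scaling, 0.0308 with normexp correction and -0.23 to 0.12 with a heart left out (0.08 without WT replicate 1, 0.12 without WT replicate 2, 0.11 without TG-PKR1 replicate 1). The second Per2 probe was -0.31 under 75th percentile scaling and -0.0390 with the processed signal, and -0.0923 to 0.20 with a heart left out, below 0 without WT replicate 1 (-0.0478), TG-PKR1 replicate 1 (-0.0923) or TG-PKR1 replicate 2 (-0.0320). The third Nr1d1 probe was -0.0633 in the authors' table, -0.0143 with scan mode as a block, and -0.0804 to 0.0923 with a heart left out, below 0 without WT replicate 3 (-0.0804), TG-PKR1 replicate 1 (-0.0392) or TG-PKR1 replicate 2 (-0.00192). The cause was not tested. Slide as a random block was not run, since only WT replicate 2 and TG-PKR1 replicate 1 share a slide. That leaves a single pair from which to estimate a correlation within slides. No paired analysis was possible because the groups share only 1 number in their titles, that of WT replicate 2 and TG-PKR1 replicate 1, which also share a slide.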
